A study of Mus musculus with 108 samples.

Results

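The wild-type (WT) mouse cerebellum (CB) was compared between postnatal day 7 (P7) and the adult period titled P35, to describe which genes rise and which fall as granule neurons mature. The members are the 6 libraries titled P7 WT CB and 5 of the 6 titled P35 WT CB, 11 of the 108 libraries of the series. Each library is bulk RNA from the cerebellum of 1 mouse, and the mice of the 2 ages are different animals. The series was made to study Cul3, a scaffold of a ubiquitin ligase, in mice with a germline 1 bp insertion in exon 6 of a single Cul3 copy (Cul3+/-, called mutant here) and in WT mice of the same C57BL/6N background, with cortex (CX), hippocampus (HIP) and CB taken from each mouse at E17.5, P7 and P35. The labels write the strain as C56Bl/6N and call the P7 mice postnatal and the P35 mice adult, which here means 4 to 6 weeks of age. 1 P35 mouse labelled WT and 1 labelled mutant carry the opposite genotype in the study's list of libraries, and both were left out. The 5 remaining P35 WT mice and the 6 P7 WT mice carried no engineered allele, and the labels name no treatment.

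The cerebellum of the mouse grows mostly after birth. Granule cell progenitors divide in the external granule layer under Sonic hedgehog, which Purkinje cells release. Their daughters leave the cell cycle, extend parallel fibres, migrate inward past Bergmann glia and settle in the internal granule layer, where they receive mossy fibre input and Golgi cell inhibition. At P7 this process is near its height, and by the fifth week the external granule layer is gone. Granule neurons are by far the most numerous cells of the adult cerebellum, so the RNA of the whole tissue is weighted towards them. In bulk tissue, fewer cells of a type and less RNA per cell cannot be told apart, and this holds for every gene below.

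Total expected counts ran from 28471543 to 42071420 in the P7 libraries and from 29948112 to 41106370 in the P35 libraries. The first principal component of log2 CPM (counts in each 1000000 of the library) held 84.2% of the variance and separated the 2 ages. Zic1, a zinc finger factor of the cerebellar granule lineage, and Pcp2, a Purkinje cell gene, were high in all 11 libraries (804 CPM or more and 118 CPM or more). The forebrain factor Emx1 did not exceed 3 counts in any library, and 7 forebrain markers summed to 29.3 to 35.6 CPM at P7 and 5.85 to 6.54 CPM at P35. Choroid plexus transcripts varied within both ages. Ttr, the transthyretin gene of that epithelium, stood at 345 and 1492 CPM in replicates 1 and 6 of P7 and at 2884 and 1312 CPM in replicates 5 and 6 of P35, and between 0.113 and 7.15 CPM in the other 7 libraries. P7 replicate 6 and P35 replicate 3 lay apart from their groups on the second component, and P35 replicate 3 held 7.86% mitochondrially encoded reads against 4.51% to 4.903% in the other P35 libraries and 1.03% to 1.59% at P7. The sex of the mice is not labelled. Xist was high in 3 of 6 P7 and 3 of 5 P35 libraries.

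Of 17754 genes tested, 7055 rose and 7139 fell between P7 and P35 (edgeR's quasi-likelihood test with Benjamini-Hochberg adjustment, FDR 0.1), so 79.9% of all genes were called, 39.7% upward and 40.2% downward. A change of at least 2-fold was called for 2891 genes upward (16.3%) and 3080 downward (17.3%), and these shares are the background for the counts below. The median log2 fold change over all genes was −0.0023 and its median absolute value was 0.65, with a median standard error (SE) of 0.11. Falls were deeper than rises. A log2 change of 2 or more was called for 1253 genes downward (7.06%) and 908 upward (5.11%), and a change of 4 or more for 381 genes downward (2.15%) and 133 upward (0.749%). For 10945 genes (61.6%) no P35 library overlapped any P7 library. Without P7 replicate 6 and P35 replicate 3, 2927 genes rose and 3101 fell by at least 2-fold, and without the 4 libraries rich in Ttr the counts were 3087 and 3072. Cul3 itself was 212 ± 6.46 CPM at P7 and 202 ± 19.5 CPM at P35 (SD, n = 6 and 5), a log2 fold change of −0.07 (SE 0.06) that did not pass the test (adjusted p = 0.337).

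**Figure D1:**
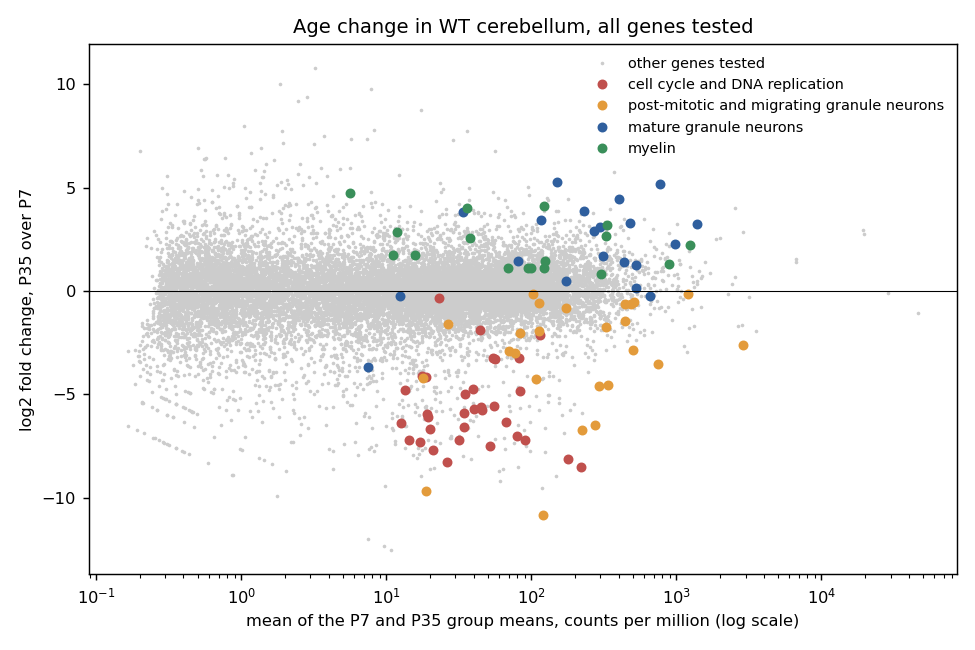
Age change of the 17754 genes tested in WT cerebellum. The x axis is the mean of the 2 group means in CPM (log scale) and the y axis the log2 fold change of P35 over P7. Each dot is a gene, with 4 gene lists coloured. Cell cycle genes lie between −8.53 and −0.33, and genes of mature granule neurons reach 5.25.

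Progenitor genes fell. Of 16 genes of granule cell progenitors and the Sonic hedgehog response, 12 fell by at least 2-fold (17.3% of all genes did) and 4 rose by less than 2-fold, with a median log2 fold change of −2.02. Atoh1, the bHLH factor that defines these progenitors, was between 16.4 and 26.7 CPM (median 22.2) at P7 and had 0 counts in all 5 P35 libraries, which makes it at least 1184-fold lower against a floor of 3 counts over the group. Mycn, a hedgehog-induced driver of their division, was between 75.3 and 109.7 CPM (median 98.5) at P7. At P35 its values were 3.93, 3.65, 4.20, 4.17 and 3.78 CPM, a log2 fold change of −4.61 (SE 0.10, edgeR adjusted p = 6.03e-13). Ccnd2, cyclin D2, was between 346 and 446 CPM (median 379) at P7 and 4.55, 5.81, 9.91, 16.9 and 7.02 CPM at P35. Ages did not overlap for either gene, and the fall of Ccnd2 came to a log2 fold change of −5.45 (SE 0.31). Barhl1, a homeobox factor of the rhombic lip lineage, had a log2 fold change of −3.63, Gli2 of −2.64 and Smo, the hedgehog signal transducer, of −1.81.

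The hedgehog genes did not all move together. Gli1, a transcriptional target of the pathway, was between 18.0 and 25.1 CPM (median 20.8) at P7 and 8.77, 9.43, 12.6, 8.89 and 7.39 CPM at P35, a log2 fold change of −1.144 (SE 0.13, edgeR adjusted p = 2.22e-06). Ptch1, the receptor and another target, was higher at P35 (118 ± 3.28 CPM at P7 and 186 ± 56.2 CPM at P35, SD), a log2 fold change of 0.66 (SE 0.15, edgeR adjusted p = 0.00112). Boc, a co-receptor, and Hhip, a ligand-binding inhibitor, rose by 0.55 and 0.37 on the log2 scale, and the hexokinase gene Hk2 by 0.60. Shh, the ligand made by Purkinje cells, stood low at both ages, between 1.63 and 2.46 CPM (median 1.91) at P7 and 2.80, 2.65, 3.14, 2.21 and 2.18 CPM at P35. It rose by 0.42 (SE 0.14) with overlap between the ages.

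All 33 genes of cell cycle and DNA replication fell, 32 of them by at least 2-fold and without overlap between ages (17.3% of all genes fell that far), and the median log2 fold change was −5.92. Top2a, the topoisomerase of dividing cells, was between 373 and 505 CPM (median 439) at P7. At P35 it was 0.873, 0.900, 1.89, 1.43 and 0.817 CPM, a log2 fold change of −8.53 (SE 0.21, edgeR adjusted p = 1.24e-12). Mki67, the gene of the Ki-67 antigen, was between 299 and 407 CPM (median 361) at P7 and 0.727, 1.002, 1.75, 1.79 and 1.06 CPM at P35. Cdk1, the kinase that starts mitosis, went from between 50.6 and 71.3 CPM (median 66.7) to 0.509, 0.360, 0.285, 0.524 and 0.424 CPM. All 3 genes were thus more than 100-fold lower at P35, by 370.5, 279.5 and 149 times in the fit. The 6 Mcm helicase genes spanned log2 fold changes from −4.85 (Mcm6) to −1.88 (Mcm4), and Pcna, the replication clamp, fell by 2.12 on the log2 scale to 43.1 ± 3.90 CPM (SD, n = 5). Ccne2, cyclin E2, fell least, by 0.33 on the log2 scale (adjusted p = 0.0411), and its ages overlapped.

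The promoters of 5 genes are shown because their genes mark the ends of this course, 3 of dividing cells that fell and 2 of mature granule neurons that rose. Each run is the 250 bases before the RefSeq start site (GRCm38.p6), 5′ to 3′ on the gene's strand, and the capitals mark CCAAT, the cell cycle element CHR (TTTGAA or TTCGAA) and the E2F letters (TTTGGCGC, TTTCGCGC, TTTGGCGG or TTTCCCGC), on either strand. Where motifs run into each other the capitals form 1 block.
Cdk1, chr10:69352913-69353162, minus strand: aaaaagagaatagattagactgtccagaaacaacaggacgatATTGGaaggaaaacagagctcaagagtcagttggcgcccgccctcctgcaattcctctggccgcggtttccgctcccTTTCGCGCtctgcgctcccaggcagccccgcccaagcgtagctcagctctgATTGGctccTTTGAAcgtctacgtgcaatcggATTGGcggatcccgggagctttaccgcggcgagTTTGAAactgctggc
Top2a, chr11:99024190-99024439, minus strand: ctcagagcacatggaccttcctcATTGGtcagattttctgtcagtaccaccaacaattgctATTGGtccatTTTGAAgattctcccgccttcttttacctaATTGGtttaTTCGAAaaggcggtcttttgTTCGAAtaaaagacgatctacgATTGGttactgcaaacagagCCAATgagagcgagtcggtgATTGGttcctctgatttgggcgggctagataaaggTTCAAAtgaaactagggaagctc
Mcm6, chr1:128359706-128359955, minus strand: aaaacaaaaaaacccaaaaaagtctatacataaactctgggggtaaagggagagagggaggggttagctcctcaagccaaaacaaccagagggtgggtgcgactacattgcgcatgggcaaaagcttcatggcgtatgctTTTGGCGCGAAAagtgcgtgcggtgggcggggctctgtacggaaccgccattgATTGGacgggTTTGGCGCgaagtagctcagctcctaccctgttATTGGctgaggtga
Gabra6, chr11:42321073-42321322, minus strand: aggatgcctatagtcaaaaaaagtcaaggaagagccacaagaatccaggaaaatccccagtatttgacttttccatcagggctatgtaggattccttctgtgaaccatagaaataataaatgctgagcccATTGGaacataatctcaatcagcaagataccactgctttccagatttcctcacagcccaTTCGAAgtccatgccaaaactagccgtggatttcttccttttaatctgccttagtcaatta
Cbln3, chr14:55884257-55884506, minus strand: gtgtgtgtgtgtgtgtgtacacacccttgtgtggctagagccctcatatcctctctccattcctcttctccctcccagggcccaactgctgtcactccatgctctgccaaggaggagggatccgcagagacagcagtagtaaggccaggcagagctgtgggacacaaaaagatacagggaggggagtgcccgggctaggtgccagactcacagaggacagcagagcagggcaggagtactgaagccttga

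Of the 33 cell cycle genes, 27 matched a promoter, and 23 of these held CCAAT (85.2%), 10 the CHR letters (37.0%) and 4 an E2F form (14.8%). Over all 27025 promoters, 1 a gene, the shares were 34.5%, 17.4% and 2.00%, and over the 12106 promoters of genes tested 36.3%, 12.1% and 3.42%. The promoters of 13 mature granule neuron genes held CCAAT in 2, the CHR letters in 3 and the E2F letters in 0. Among 12 promoters of cholesterol genes, 10 held CCAAT. These are counts of letters, without a test. In the printed runs Top2a holds 6 CCAAT and 4 CHR matches, Cdk1 holds all 3 kinds, Mcm6 holds 3 E2F matches, 2 of them overlapping, and 2 CCAAT matches, Gabra6 has 1 CCAAT and 1 CHR match, and Cbln3 has none.

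Genes of the next step, in neurons that have stopped dividing and migrate, also fell. Of 25 such genes, 23 fell, 18 by at least 2-fold, and none rose (median log2 fold change −2.61). Igfbpl1 was between 221 and 260.4 CPM (median 245) at P7. At P35 it was 0.109, 0.0771, 0.0356, 0.0828 and 0.333 CPM, and its log2 fold change of −10.84 (SE 0.22) was among the 10 largest falls of genes with at least 20 CPM. Without P35 replicate 6, the highest of the 5, it was −11.55. Nhlh1, a bHLH factor of newly postmitotic granule neurons, dropped from between 32.1 and 42.0 CPM (median 37.3) to 0.0364, 0.0514, 0.0713, 0.0276 and 0.0303 CPM. Dcx, the doublecortin gene of migrating neurons, was between 426 and 454 CPM (median 444) at P7 and 2.98, 3.19, 6.77, 4.97 and 3.24 CPM at P35, a log2 fold change of −6.71 (SE 0.21, edgeR adjusted p = 1.04e-11). Sox11 and Sox4, SoxC factors of immature neurons, had log2 fold changes of −6.47 and −4.27. None of these 5 genes overlapped between ages.

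The tubulin genes of the same list also fell and were still measured in the adult tissue. Tuba1a, the main tubulin of growing neurons, was between 4545 and 5187 CPM (median 4979) at P7 and still 892, 831, 700.1, 785 and 837 CPM at P35. Its log2 fold change was −2.61 (SE 0.08), against −3.55 (SE 0.08) for Tubb2b and −1.46 (SE 0.05) for Tubb3. Gap43, of growth cones, and Stmn2, a microtubule regulator of axons, fell by 0.81 and 0.65 on the log2 scale. Neurod1, which is needed for granule neuron differentiation, was between 544 and 633 CPM (median 603) at P7 and 443, 442, 374, 419 and 412 CPM at P35, a log2 fold change of −0.52 (SE 0.06, edgeR adjusted p = 6.50e-06). The 2 members that did not pass the test were Astn1 and Nrep. The plot of granule lineage genes by library shows the size of these drops, and with only these ages sampled it gives no order in time.

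**Figure D2:**
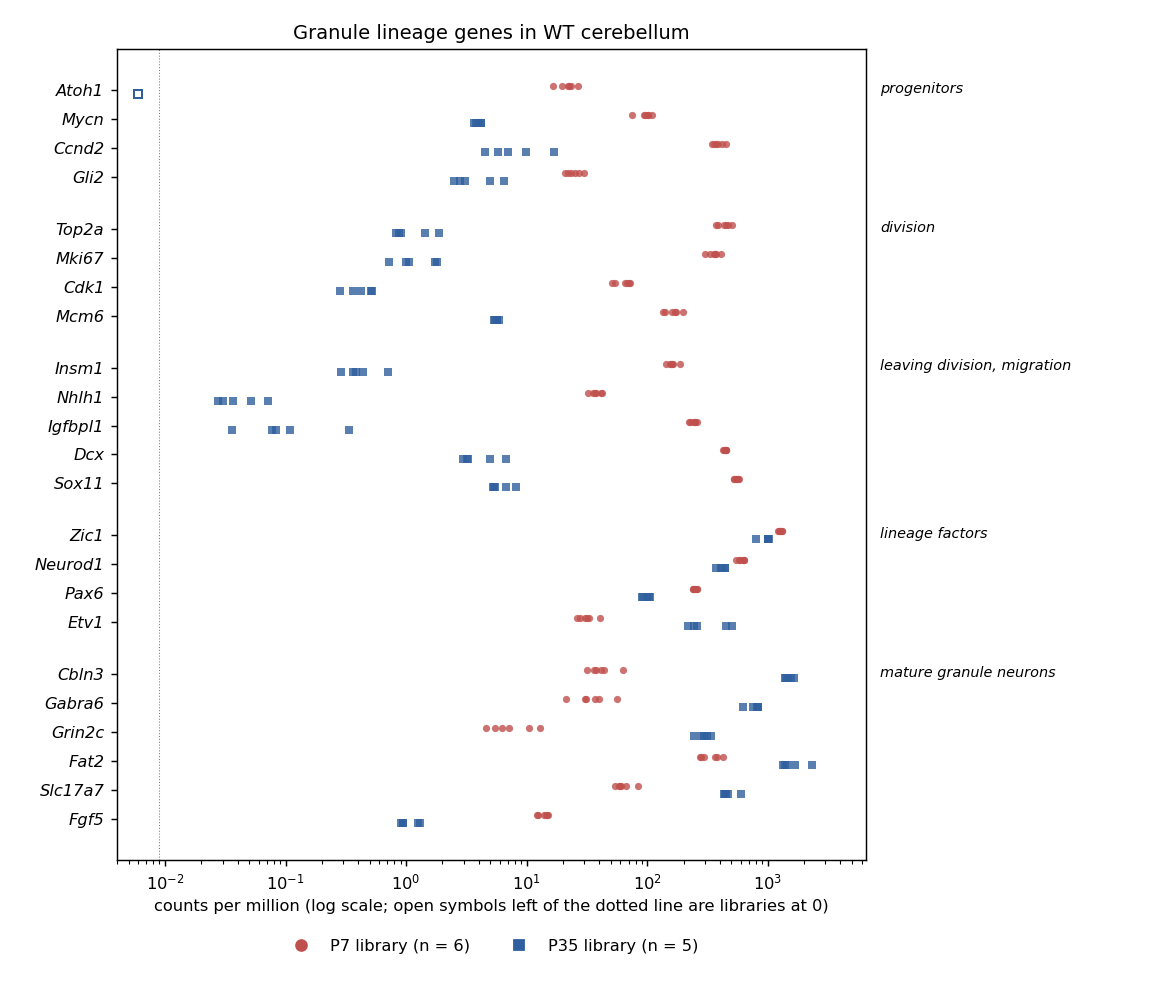
CPM (log scale) of 23 granule lineage genes in each WT cerebellum library, with 6 P7 libraries as circles and 5 P35 libraries as squares. The 13 genes of progenitors, division and migration are at least 6.25-fold lower at P35, while Zic1, Neurod1 and Pax6 stay at or above 90.8 CPM in every library. Open squares are libraries at 0.

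Transcription factors of the granule lineage split. Of 23, 16 fell and 5 rose, 11 and 3 of them by at least 2-fold. Insm1, a zinc finger factor of cells leaving division, went from between 143 and 188 CPM (median 159) at P7 to 0.291, 0.386, 0.713, 0.442 and 0.363 CPM at P35, a log2 fold change of −8.53 (SE 0.15, edgeR adjusted p = 1.60e-13). Zic1 stayed abundant, between 1205 and 1316 CPM (median 1256) at P7 and 1006, 1029.8, 804, 1009.9 and 996 CPM at P35, with a log2 fold change of −0.38 (SE 0.07), while Zic4 fell by 1.90 and Zic5 by 1.35. Pax6, a paired box factor of the lineage, fell by 1.34. The nuclear factor I genes moved in both directions, with Nfib at −1.91 and Nfia at −0.95 against Nfic at 1.304. Nfic was 211 CPM in P35 replicate 3 and 71.6 to 106 CPM in the other 4. Etv1, an ETS factor of maturing granule neurons, was the largest riser of the list. It was between 26.1 and 40.9 CPM (median 30.9) at P7 and 217, 247, 503, 452 and 259 CPM at P35, a log2 fold change of 3.41 (SE 0.23, edgeR adjusted p = 1.22e-08). The activity-responsive factors Mef2a and Mef2d rose by 0.73 and 1.12, and Mef2c did not pass the test at −0.01 (45.0 ± 2.62 CPM at P7 and 44.7 ± 3.67 CPM at P35, SD).

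Genes of mature granule neurons rose. Of 20, 16 rose, 15 by at least 2-fold and 16 without overlap, against 16.3% and 30.1% of all genes, and their median log2 fold change was 2.60. Cbln3, a secreted synapse organizer that granule neurons make, was between 31.9 and 62.9 CPM (median 39.4) at P7. The P35 values were 1553, 1479, 1649, 1405 and 1383 CPM, a log2 fold change of 5.15 (SE 0.16, edgeR adjusted p = 1.12e-11). Gabra6, the GABA-A receptor subunit particular to these cells in the cerebellum, was between 21.1 and 55.7 CPM (median 33.9) at P7 and 806, 828, 623, 757 and 837 CPM at P35, a log2 fold change of 4.43 (SE 0.21, edgeR adjusted p = 4.19e-10). Both genes were on at P7, and the fit put them 35.4 and 21.5 times higher at P35. Fat2, a protocadherin of parallel fibres, was already between 272 and 427 CPM (median 332) at P7 and rose to 1441, 1379.8, 2336, 1679 and 1349 CPM. Cdh15 rose by 3.82, Calb2, calretinin, by 3.86, and Grm4, the presynaptic metabotropic receptor of parallel fibres, by 3.07. Cbln1, which links parallel fibres to the delta receptor, rose by less, 1.27.

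The 4 exceptions in the list were Fgf5, Reln, Kcnk9 and Cadps2. Fgf5, a fibroblast growth factor, fell from between 12.2 and 15.1 CPM (median 14.2) to 0.946, 0.951, 1.25, 1.297 and 0.908 CPM, a log2 fold change of −3.69 (SE 0.12, edgeR adjusted p = 1.50e-11). Reln, the secreted glycoprotein reelin, overlapped between ages and had a log2 fold change of −0.24 (adjusted p = 0.0519), a call that was lost without any one of P7 replicates 2 and 6 and P35 replicates 1, 2 and 6 (−0.22 to −0.21). The potassium channel gene Kcnk9 (13.5 ± 1.90 CPM at P7 and 11.3 ± 2.81 CPM at P35, SD) and Cadps2 (502 ± 32 CPM at P7 and 548 ± 56.8 CPM at P35, SD), of dense core vesicle release, did not pass the test.

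NMDA receptors join obligatory GluN1 with GluN2 subunits that set their kinetics, and 4 of their 7 genes rose while 1 fell. Grin2b, the juvenile GluN2B, was between 95.9 and 191 CPM (median 121) at P7 and 16.1, 19.5, 47.5, 34.96 and 17.3 CPM at P35, a log2 fold change of −2.32 (SE 0.30, edgeR adjusted p = 9.49e-06). Grin2c, the GluN2C of adult granule neurons, was between 4.61 and 12.8 CPM (median 6.68) at P7. It reached 339, 316, 294, 242 and 283 CPM at P35, a log2 fold change of 5.25 (SE 0.25, edgeR adjusted p = 3.84e-10). Grin2a rose by 2.56 and the obligatory subunit gene Grin1 by 1.42, while Grin3a and Grin2d did not pass the test (5.50 ± 1.41 CPM at P7 and 6.08 ± 3.04 CPM at P35 for Grin2d, SD). Within a library the log2 ratio of Grin2c to Grin2b counts was −4.17 ± 0.49 at P7 and 3.57 ± 0.80 at P35 (SD, n = 6 and 5), which is a ratio of 0.0557 and then of 11.9.

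Such ratios were computed for 15 pairs of an earlier and a later subunit or isoform. In all 15 the ratio of the late to the early member rose (exact 2-sided permutation test over the 462 arrangements of the mice, Benjamini-Hochberg adjusted over the 15 pairs). For 14 pairs the ages did not overlap and the exact permutation p was 0.00433, the smallest these numbers allow (adjusted p = 0.00464), and for Glra1 over Glra2 the exact p was 0.00866. The log2 ratio of Scn1a to Scn3a, sodium channel genes of the adult and the immature neuron, was 0.56 ± 0.13 at P7 and 7.09 ± 0.33 at P35 (SD). For Slc17a7 over Slc17a6, the vesicular glutamate transporters VGLUT1 and VGLUT2, it was −0.81 ± 0.21 at P7 and 4.86 ± 0.54 at P35 (SD). Counts were not divided by length here, so a ratio within a library compares ages and not the 2 genes. Of all single genes tested, 61.6% did not overlap between ages. Grin2b and Gabra2 each serve in 2 pairs. The pairs were drawn from genes of the lists, so the counts of pairs give no independent support.

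A rise of the ratio had different makings. In 5 pairs the early gene fell while the late one rose, namely Grin2b with both Grin2c and Grin2a, Scn3a with Scn1a, Slc17a6 with Slc17a7, and Nfib with Nfic. In 6 pairs both rose, among them the chloride cotransporters. Slc12a5 (KCC2), which exports chloride, was between 80.2 and 132 CPM (median 102) at P7 and 508, 531, 632, 537 and 463 CPM at P35, a log2 fold change of 2.32 (SE 0.13, edgeR adjusted p = 1.97e-09), and Slc12a2 (NKCC1), which imports it, also rose by 0.80. In 2 pairs both members fell, for Ccnd2 and Ccnd1 (−5.45 and −1.47) and for the BAF complex subunits Actl6a and Actl6b (−2.11 and −0.49). Glra1 stayed at 0.635 ± 1.08 CPM at P7 and 0.745 ± 0.572 CPM at P35 (SD) and did not pass the test, although it did without P7 replicate 6 (log2 fold change 1.78), and Glra2 fell by 2.97 on the log2 scale. Of the 6 genes of glycine receptors and chloride cotransporters, 3 rose and Glra2 fell, joined by Glra3 without P7 replicate 2. Bcan likewise did not pass the test, while Ncan had a log2 fold change of −3.01.

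**Figure D3:**
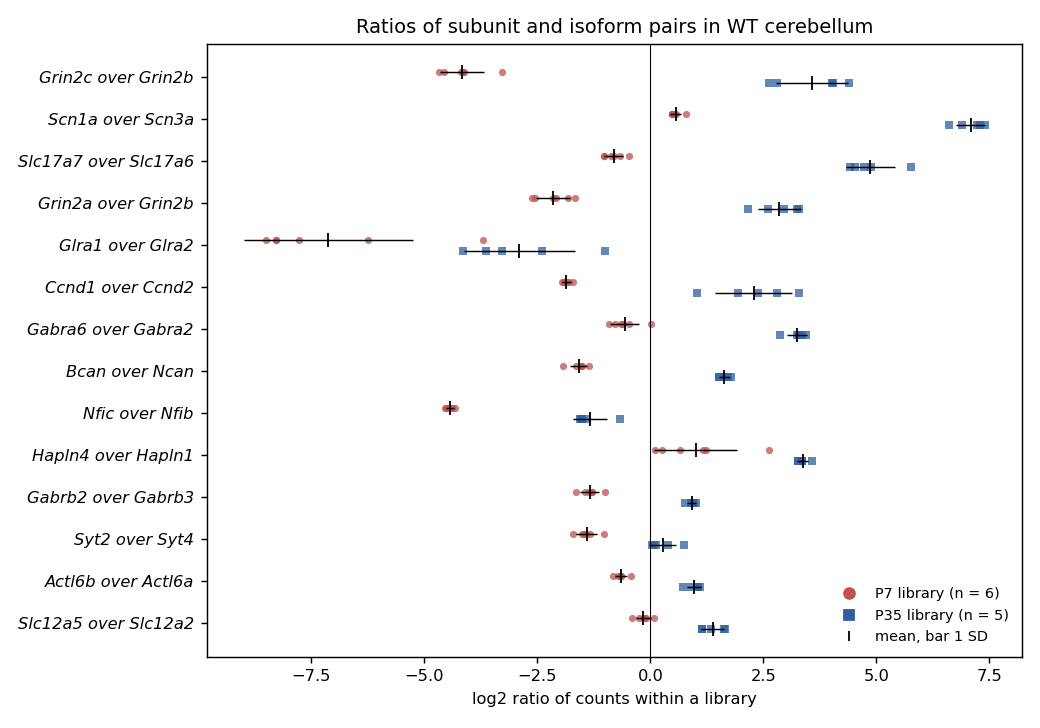
Log2 ratio of the counts of the late to the early member of 14 of the 15 pairs in each WT cerebellum library. Circles are the 6 P7 libraries and squares the 5 P35 libraries, with the mean as a tick and 1 SD as a bar. The ages overlap in the Glra pair and in no other pair shown.

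Other receptor genes mostly rose. All 6 AMPA and delta receptor genes rose, from 0.35 (Grid1) to 1.87 (Gria1). Of 14 GABA-A receptor genes, 10 rose and 3 fell. Gabrd, whose subunit carries tonic inhibition in granule neurons, rose by 3.44 and Gabrb2 by 2.55. Gabra5, a subunit gene common in the hippocampus, was between 1.95 and 6.41 CPM (median 3.32) at P7 and 0.582, 0.386, 0.499, 0.386 and 0.545 CPM at P35, a log2 fold change of −2.93 (SE 0.30). Gabra2, often taken as the juvenile alpha subunit, rose by 0.67 here.

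Channel genes of excitability mostly rose. Of 9 sodium channel genes, 6 rose and 3 fell, each by at least 2-fold, with a median of 2.89. Scn2a, which supports the axon of granule neurons, was between 63.6 and 98.8 CPM (median 87.2) at P7 and 718, 739.9, 769, 792 and 723 CPM at P35, a log2 fold change of 3.13 (SE 0.10, edgeR adjusted p = 9.92e-12). The beta subunit genes Scn4b and Scn2b rose by 4.80 and 3.74, whereas Scn3b fell by 3.90 and Scn3a by 3.60. Of 20 potassium and pacemaker channel genes, 17 rose, 15 by at least 2-fold, and none fell, except that Kcnk9 was called lower without any one of P7 replicates 2 and 5 and P35 replicate 3. Kcnj9, a G-protein-gated channel gene, rose most, by 3.59, and Kcna2 rose by 3.05.

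Of 24 genes of synaptic vesicles and release, 22 rose and 2 fell, against 39.7% and 40.2% of all genes. None of the 24 overlapped between ages, and neither did 61.6% of all genes. Snap25, of the fusion complex, was between 221 and 301 CPM (median 269) at P7 and 2580.4, 2636, 2202, 2617 and 2579 CPM at P35, a log2 fold change of 3.25 (SE 0.09, edgeR adjusted p = 3.54e-12). Its partner Stx1a, a syntaxin, moved the other way. It was between 28.5 and 30.8 CPM (median 29.3) at P7. At P35 it was 2.55, 2.26, 2.60, 2.24 and 2.30 CPM, a log2 fold change of −3.63 (SE 0.07, edgeR adjusted p = 2.53e-13). The other gene that fell was Slc17a6, by 2.70 on the log2 scale. Unc13c, a release factor of granule neurons, rose by 2.69, the active zone genes Rims1, Pclo and Bsn by 2.68, 2.61 and 2.38, and Syp, the vesicle protein synaptophysin, by 1.16. The P35 libraries spread widely for Pclo (356 ± 160 CPM) and Bsn (321 ± 210 CPM), but not for Rims1 (360 ± 16.1 CPM, SD).

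Axon guidance genes moved in both directions. Of 31, 19 fell and 9 rose, 7 and 3 by at least 2-fold (17.3% and 16.3% of all genes did), and the median was −0.31. Dcc, a netrin receptor, was the deepest, between 51.0 and 75.8 CPM (median 64.2) at P7 and 2.18, 2.80, 4.60, 3.39 and 2.12 CPM at P35, a log2 fold change of −4.42 (SE 0.19, edgeR adjusted p = 1.89e-10). The guidance receptor genes Robo2 and Unc5c had log2 fold changes of −1.75 and −1.17, while Ntn1, the netrin gene, did not pass the test. Plxna4, a semaphorin receptor gene, rose by 2.02.

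Purkinje cells are few and do not divide after birth, and their genes rose. Of 23, 22 rose, 18 by at least 2-fold, with a median of 1.70. Itpr1, the inositol trisphosphate receptor of Purkinje dendrites, was between 634 and 811 CPM (median 671) at P7 and 4815, 5492, 5579, 5237 and 4349 CPM at P35, a log2 fold change of 2.86 (SE 0.10, edgeR adjusted p = 1.80e-11). Pvalb, the calcium buffer parvalbumin of Purkinje cells and interneurons, went from between 42.1 and 77.4 CPM (median 58.4) to 625, 698, 460.1, 568 and 592 CPM, a log2 fold change of 3.32 (SE 0.16, edgeR adjusted p = 4.45e-10). Kcng4 (4.63), Gng13 (4.41) and Ppp1r17 (3.75) rose most, and Aldoc, which marks zebrin stripes and astrocytes, rose by 3.24. Car8 rose by 1.91, Calb1 by 1.13 and Pcp2 by 1.07. Foxp2 was the member that fell, from between 19.0 and 29.3 CPM (median 24.3) to 12.3, 12.3, 12.1, 13.4 and 11.1 CPM, a log2 fold change of −0.998 (SE 0.10).

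Of 15 genes of inhibitory interneurons, 10 rose and 3 fell. Gad1 and Gad2, which make GABA, rose by 1.70 and 1.94. Those that fell include Pax2 (−0.96), which marks interneuron precursors, and the serotonin receptor gene Htr2a (−1.38). Pax2 was highest in P35 replicate 3, without which its log2 fold change was −1.60. Of 9 genes of unipolar brush cells and cerebellar nuclei, 5 fell and 1 rose. Tbr1, of cerebellar nuclei neurons, fell by 1.69, and Nefh, the heavy neurofilament of large axons, rose by 1.53. Th, tyrosine hydroxylase, fixed in a list of midbrain markers, was between 0.0291 and 0.395 CPM (median 0.149) at P7 and 4.36, 6.32, 8.37, 6.62 and 6.14 CPM at P35, a log2 fold change of 5.21 (SE 0.33, edgeR adjusted p = 7.69e-09). The other tested genes of that list fell, Pou4f1 by 3.23 and Barhl2 by 0.21, and Slc6a3 and Pitx3 were under the filter. The ages overlapped for Barhl2, and its call was lost without any one of P7 replicate 2 (−0.18) and P35 replicates 5 (−0.16) and 6 (−0.16). The summed level of that list was 33.0 to 39.4 CPM at P7 and 33.4 to 45.3 CPM at P35. Most of that sum is Barhl2, with means of 35.7 CPM at P7 and 30.9 CPM at P35.

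Glial genes moved in both directions. Of 20 genes of Bergmann glia and astrocytes, 10 rose and 8 fell, against 39.7% and 40.2% of all genes. Fabp7, a lipid-binding protein of radial and Bergmann glia, was between 509.6 and 611 CPM (median 576) at P7 and 92.4, 105, 49.9, 76.5 and 71.2 CPM at P35, a log2 fold change of −2.86 (SE 0.16, edgeR adjusted p = 2.11e-09). Tnc (−2.18), Nes (−1.94), Gfap (−1.78) and Vim (−1.15), of matrix and intermediate filaments, fell as well. Among those that rose were Slc1a2, the glutamate transporter GLT-1, at 2.39, the potassium channel gene Kcnj10 at 2.89 and the connexin gene Gjb6 at 2.59. Kcnj10 varied widely at P35 (126 ± 86.4 CPM, SD). Slc1a3, the transporter GLAST that Bergmann glia carry, was already between 899 and 1031 CPM (median 948) at P7 and rose by 0.73. Sox9 did not pass the test, 20.6 ± 0.972 CPM at P7 and 20.6 ± 8.86 CPM at P35 (SD).

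All 17 myelin genes rose, 16 by at least 2-fold, with a median of 1.74. Mbp, the myelin basic protein gene, was between 178 and 854 CPM (median 535) at P7 and 1319, 614, 1841, 1172 and 1376 CPM at P35, a log2 fold change of 1.296 (SE 0.34, edgeR adjusted p = 0.00326), with replicate 2 lowest at each age, and the lowest P35 library lay below the highest P7 library. Opalin, Mal and Ermn, of later stages, rose by 4.74, 4.13 and 4.02. Genes of oligodendrocyte precursors fell, 7 of 9 and none upward. Pdgfra, the receptor of precursors, fell by 2.26 and Gpr17, of committed precursors, by 1.78. Of 12 matrix genes, 7 rose and 4 fell. The lecticans Ncan and Vcan of the juvenile matrix fell, with log2 fold changes of −3.01 and −2.27, and the link protein genes Hapln2 and Hapln4, of nodes and perisynaptic matrix, rose by 4.78 and 3.77.

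Markers of cells outside the neural lineage moved as follows. All 8 meningeal and fibroblast genes fell, and their summed level was 523 to 834 CPM at P7 and 201 to 240.5 CPM at P35. Among them Col3a1, a fibrillar collagen gene, was between 192 and 332 CPM (median 217) at P7 and 27.8, 32.1, 25.6, 26.5 and 29.0 CPM at P35. Of 12 microglia genes, 8 fell and 2 rose, with sums of 193 to 253 CPM and then 133 to 161 CPM. Trem2 fell by 1.40 and C1qc by 1.25, while P2ry12, a marker of homeostatic microglia, rose by 0.27. Of 12 endothelial and pericyte genes, 5 rose and 7 fell, and their sums overlapped (512 to 560 CPM and 481 to 524 CPM). Slco1a4, a transporter of the blood-brain barrier, rose by 3.05 and Kdr, the VEGF receptor of growing vessels, fell by 1.35. Of 6 blood genes 1, Slc4a1, was called lower. That call was lost without any one of P7 replicates 1 and 6 and P35 replicates 1 and 6, and without P35 replicate 5 there were 2. Of 7 choroid plexus genes tested 3 were called upward, Kl, Clic6 and Kcnj13, all with overlap between ages, and Ttr was not. All 5 forebrain genes tested fell, and of 8 brainstem genes 2 passed the filter, with sums of 0.396 to 1.70 CPM at P7 and, at P35, 0.545 to 1.85 CPM in 4 libraries and 9.91 CPM in replicate 3. The part of these cells in the changes above was not tested.

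Beyond cell type lists, chromatin genes mostly fell, 17 of 24, and 7 rose. Uhrf1, which brings maintenance methylation to new DNA, was between 107 and 160.4 CPM (median 133) at P7 and 0.691, 0.591, 0.535, 0.855 and 0.605 CPM at P35, a log2 fold change of −7.63 (SE 0.15, edgeR adjusted p = 3.12e-13). Its partner Dnmt1, the maintenance methyltransferase, fell by only 1.08 to 92.6 CPM. Ezh2 fell by 1.52 and its paralogue Ezh1, of resting cells, rose by 1.66. Hdac2 fell by 1.68 and Hdac11 rose by 1.63.

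Of 18 cholesterol genes, 14 fell and 3 rose. Mvd (−1.63), Sqle (−1.34) and Hmgcs1 (−1.11), of synthesis, fell without overlap. Of 12 immediate early genes, 10 rose and 2 fell. Fos was between 4.95 and 8.38 CPM (median 6.24) at P7 and 29.9, 26.4, 71.2, 42.7 and 31.6 CPM at P35, a log2 fold change of 2.68 (SE 0.24, edgeR adjusted p = 2.70e-07), and Npas4, which calcium entry induces in neurons, rose by 4.21. Egr2 went the other way, from between 1.63 and 2.19 CPM (median 1.65) to 0, 0.0771, 0, 0.0276 and 0.0908 CPM, a log2 fold change of −5.27 (SE 0.37), with 2 of the 5 P35 libraries at 0. P35 replicate 3 had the highest summed level of these genes, 285 CPM against 171 to 213 CPM in the other 4.

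Large families chosen by symbol moved almost as blocks. Of 65 replication-dependent histone genes tested, 64 fell, 63 by at least 2-fold, with a median of −5.17. Hist1h3c was between 162 and 298 CPM (median 241) at P7 and 0.364, 0.334, 0.249, 0.414 and 0.212 CPM at P35. These copies are near identical, so the split of reads among them is uncertain. All 79 cytosolic ribosomal protein genes fell, 72 by at least 2-fold, with a median of −1.44. Of 13 mitochondrially encoded protein genes, 11 rose and none fell (median 1.136), beside the higher mitochondrial share of the P35 libraries. Of 19 subunit genes of the V-ATPase, the proton pump of vesicles and lysosomes, 16 rose, 6 by at least 2-fold. By length, the 5 most abundant RNAs were the small RNAs Rn7s1, Rn7s2, Rn7sk and Rpph1 at both ages, joined by Rmrp at P7 and by the mitochondrial mt-Rnr2 at P35. Rn7s1 fell from a mean of 62716 to 29980.2 CPM while its near-identical copy Rn7s2 rose from 5073 to 34005 CPM, so the split between these copies is uncertain.

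Other families split. Of 14 tubulin genes, 10 fell and 4 rose, with Tubb4a, of mature axons and myelin, at 2.46 (194 to 418 CPM in 4 P35 libraries and 776 CPM in replicate 3), a gene named here after its values were seen. Of 36 kinesin genes, 17 fell and 16 rose, against 40.2% and 39.7% of all genes. By at least 2-fold, 15 fell and 3 rose, against 17.3% and 16.3% of all genes. Clustered protocadherins, adhesion genes that give neurons their surface identity, rose in 40 of 56 and fell in 3 (median 0.48). The shares over all genes were 39.7% and 40.2%, and 7 of the 56 rose by at least 2-fold, against 16.3% of all genes. Of 364 zinc finger genes named Zfp, 135 rose and 125 fell, which is near the shares of all genes. Long genes rose more often. Among protein-coding genes that span at least 300 kb, 30.2% rose by at least 2-fold, against 12.7% of those under 10 kb.

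Of the genes with the largest rises and at least 20 CPM, several lie outside the lists. Etnppl, an astrocyte enzyme gene, was between 0.0566 and 0.122 CPM (median 0.0653) at P7 and 30.7, 34.0, 26.1, 33.1 and 50.2 CPM at P35, a log2 fold change of 8.77 (SE 0.24, edgeR adjusted p = 2.60e-12). Dao, D-amino acid oxidase of Bergmann glia and cerebellar astrocytes, was between 0.198 and 0.545 CPM (median 0.359) at P7. It reached 60.7, 59.9, 55.2, 52.3 and 59.2 CPM at P35, a log2 fold change of 7.29 (SE 0.16, edgeR adjusted p = 5.10e-13). Crtam, an adhesion gene first known from T cells, went from between 0.727 and 1.47 CPM (median 0.897) to 114, 118, 97.5, 109 and 115 CPM, a log2 fold change of 6.77 (SE 0.15, edgeR adjusted p = 6.04e-13). Fam107a (5.74), Vwa7 (5.61), Tesc (5.202), Gpd1 (5.01) and Plk5 (4.93) followed, besides Grin2c and Cbln3. The 10 largest falls were Atoh1, Igfbpl1, Nhlh1, 4 histone genes, and Pclaf (−9.17), Melk (−8.93) and Draxin (−8.71), the last a repellent of growing axons. Melk was highest at P35 in replicate 3, without which its log2 fold change was −9.74. The smallest p among falls belonged to Basp1, of growth cones, Kcnq5, Panx1, Cenpf and Nhlh1, and among rises to Dgkg, Tmem266, Car4, Patj and Ipcef1. Basp1 was between 394 and 477 CPM (median 449) at P7 and 8.22, 6.48, 7.31, 6.95 and 8.14 CPM at P35.

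The same ages were compared in 11 mutant mice, which share no library with the WT mice. In mutant cerebellum 81.5% of 17828 genes were called, 7306 upward (41%) and 7219 downward (40.5%). Of the 2801 genes that rose at least 2-fold in WT and were tested in mutants, 2679 (95.6%) also rose there, and of the 3036 that fell, 2992 (98.6%) also fell, with 1 gene of each kind called the opposite way. The test of the difference, age by genotype, called 0 of 18613 genes by edgeR's quasi-likelihood test, while 2752 had an unadjusted p under 0.05, DESeq2 called 80 and the likelihood ratio test 11. Without P7 WT replicate 6 the quasi-likelihood test called 221 genes. Log2 fold changes in mutants were 4.66 for Gabra6, 5.27 for Cbln3, 5.17 for Grin2c, −8.18 for Mki67 and −7.10 for Dcx. All 33 cell cycle genes were tested in mutants, where 32 fell with a median of −5.72, and the 20 mature granule genes had a median of 2.52.

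Whether the changes differed from those of other regions was tested in the same 11 WT mice with their CX and HIP libraries, by the interaction of age and region with the mouse as a block. The change differed from that of CX for 13109 of 19657 genes (66.7%) and from that of HIP for 12448 (63.3%). The 2 interactions share the cerebellum libraries, so they do not check each other. Within a region, 10.5% and 11.3% of genes rose and fell by at least 2-fold in CX (72.4% called in all, 35.4% and 37% each way), and 7.98% and 10.2% in HIP (74.3% called, 36.8% and 37.5%).

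Over all genes the change was more positive than in CX for 30.5% and more negative for 36.1%, and 29.5% and 33.8% against HIP. All 33 cell cycle genes fell more in cerebellum than in either region, where their medians were −1.84 (CX) and −2.32 (HIP). Of the 20 mature granule genes, 16 changed more positively than in CX and 17 than in HIP, where the medians were 0.33 and 0.04. Cbln3 was 0.963 and 0.438 CPM in CX and 1.27 and 0.414 CPM in HIP at P7 and P35. Its change in cerebellum exceeded those in CX and HIP by 6.26 (SE 0.21) and 6.75 (SE 0.20) on the log2 scale. Crtam, Dao, Sycp1 and Calb2 had the other largest positive differences, and Crtam, Dao and Sycp1 had means under 0.2 CPM in CX and HIP at both ages. Among genes that passed the interaction test against both regions with at least 20 CPM in cerebellum, Nhlh1, Insm1, Igfbpl1, Hist1h3c and Dtl had the largest negative ones, ranked by the smaller of the 2 differences, with Insm1 −8.21 against CX and −7.63 against HIP. Atoh1, at 0 in every P35 cerebellum library, did not pass that test.

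Migration genes fell in all 3 regions. The median of their list was −2.61 in cerebellum, −2.61 in CX and −2.48 in HIP, with 8 members above and 13 below the change of CX. Gap43 fell less in cerebellum than in CX, with a difference of 1.69, and Dcx fell more, with a difference of −2.52.

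Myelin genes rose in cerebellum but rose less there than in either region for 17 of 17 genes (CX median 4.42, HIP median 5.32). The levels at P7 differed. Mbp had a mean of 488 CPM in cerebellum at P7, against 77.8 in CX and 64.0 in HIP on the scale shared by the 3 regions. At P35 the means were 1192, 1014 and 1341 CPM. Its interaction was −2.37 (SE 0.31) against CX. All 12 microglia genes changed more negatively than in CX and HIP, where their medians were 1.06 and 0.92 against −0.66 in cerebellum. Pvalb also rose less than in CX, with a difference of −4.33, and it had been 0.222 CPM in CX at P7 against 56.1 in cerebellum. Stx1a, which fell in cerebellum, rose from 226 to 272 CPM in CX and fell from 128 to 65.9 CPM in HIP.

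**Figure D4:**
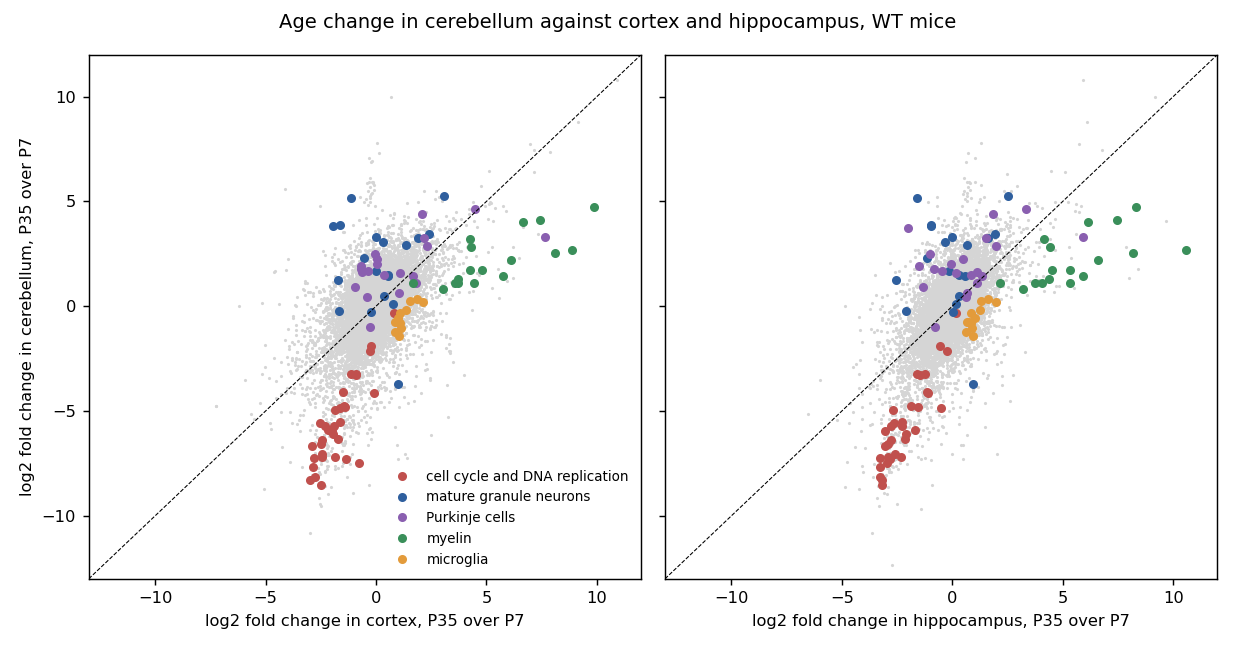
Log2 fold change of P35 over P7 in cerebellum (y axis) against that in cortex (left) and hippocampus (right) of the same WT mice. Grey dots are all genes tested in both, coloured points 5 gene lists, and the dashed line marks equal change. Cell cycle genes lie below the line, mature granule genes mostly above it, and myelin genes below it at positive values.

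**Figure D5:**
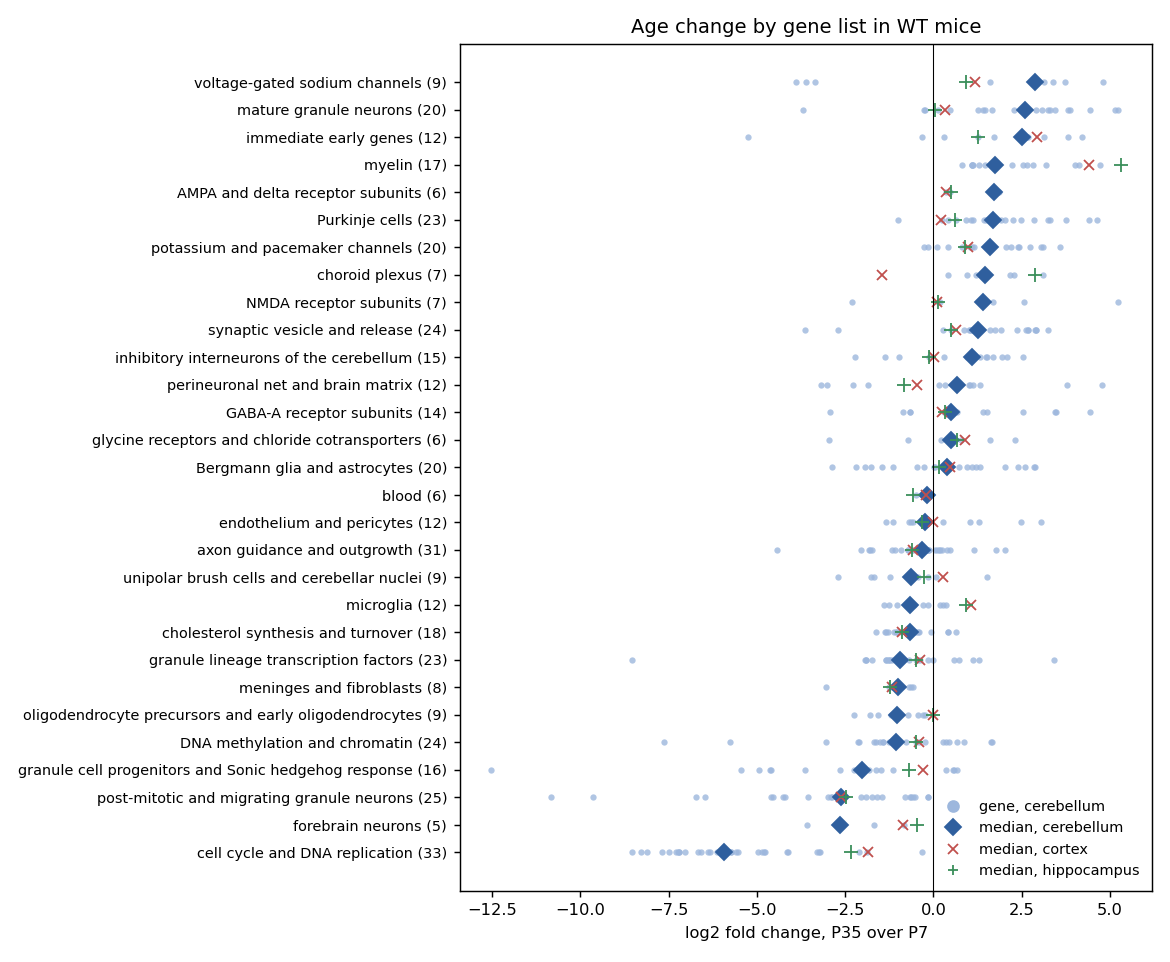
Log2 fold change of P35 over P7 for the genes of 29 lists with at least 5 genes tested. Pale circles are single genes in cerebellum, diamonds the cerebellum medians, crosses and plus signs the cortex and hippocampus medians, and the number tested stands in brackets. The cerebellum medians run from −5.92 (cell cycle) to 2.89 (sodium channels).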

How the data were processed

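RNA of 1 cerebellum per mouse was depleted of ribosomal RNA and made into stranded libraries. The authors trimmed reads with Cutadapt 1.14, aligned them with STAR 2.5.3a to GRCm38.p5 and deposited RSEM 1.3 expected counts for 53465 genes in 108 libraries. In the 11 libraries 5.86% of values were not whole, and all were rounded. Groups were taken from the labels, without the 2 mice whose genotype is in conflict.

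Genes with too few counts were removed (edgeR 4.0.16 filterByExpr, minimum count 10, minimum total 15), libraries were scaled by TMM, and P35 was tested against P7 with edgeR's quasi-likelihood test in R 4.3.3. Calls are at a Benjamini-Hochberg adjusted p under 0.1, and the second rule adds a 2-fold change. CPM are counts in each 1000000 of the scaled library size, and the SE is the log2 fold change over the square root of F. The region comparison was fitted over the CB, CX and HIP libraries of the 11 mice. DESeq2 1.42.0 was an alternative. In simulated counts for this contrast, 197 of 17493 genes were changed. Of those changed by a log2 of 0.5, 1 and 2, 47.0%, 86.4% and 98.5% were recovered, and 11 unchanged genes were called. The real contrast called 79.9% of genes, so these rates need not hold for it. The closest 2 libraries of a group differed by 12.5 in chi-square per degree of freedom, so all were kept as separate mice.

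The lists and members were chosen with earlier results of these data known, and the lists give no independent support. Some genes, among them Snap25 and Grin2c, stand in several lists and are counted in each. Besides listed genes, the text names the 10 largest changes each way without overlap and with at least 20 CPM at the higher age (Gm and Rik names left out), the 5 smallest p each way, the 5 largest region differences each way and the 5 most abundant RNAs per kb. Promoters come from a RefSeq table (GRCm38.p6), 1 a gene. Some listed genes are counted with their lists but are not reported singly here.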

Additional observations from a re-analysis of the deposited data

Results flagged for a closer look

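The 164 named genes at each age make 328 groups, of which Atoh1 at P35, at 0 in every library, could not be tested. Among the others, 23 groups held a library far from the rest by Dixon's gap test, where chance gives about 1 in 20. Of these, 16 were at P35 and 7 at P7, and 13 of the 16 were P35 replicate 3, which also had the highest mitochondrial share. It was high for Nfic (211 CPM), Grm4 (744 CPM), Grin1 (273 CPM), Grin2d (11.4 CPM), Grid1 (33.5 CPM), Stmn2 (383 CPM), Barhl1 (10.2 CPM), Pax2 (3.92 CPM), Npas4 (7.88 CPM) and Vwa7 (32.4 CPM). It was low for Zic1 (804 CPM), Snap25 (2202 CPM) and Pcna (36.1 CPM). P35 replicate 2 was low for Slc17a6 (8.15 CPM) and Hapln2 (8.61 CPM), and P35 replicate 6 was high for Igfbpl1 (0.333 CPM). At P7, replicate 6 was high for Nfia (289 CPM), Glra1 (2.83 CPM) and Vwa7 (0.668 CPM) and low for Zic4 (144 CPM) and Draxin (99.8 CPM), replicate 2 was high for Col3a1 (332 CPM) and replicate 4 for C1qc (29.3 CPM). The part of the mitochondrial share in these values was not tested.

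The change with age differed between regions by the interaction test for 13109 genes against CX and 12448 against HIP. Among genes named with values, the differences against CX and HIP were 6.26 and 6.75 for Cbln3, 1.69 and 1.96 for Gap43, −2.52 and −2.36 for Dcx, −2.37 and −3.03 for Mbp, −4.33 and −2.60 for Pvalb and −8.21 and −7.63 for Insm1, all on the log2 scale.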

How the results depend on the processing

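Counts of called genes were within 1.5 times of the values above in 304 of 315 comparisons of a count with its value under an alternative. In WT cerebellum, genes called ran from 13734 to 14595 with 1 library left out, against 14194, and from 13155 to 16719 under the other settings, which were upper-quartile or RLE scaling, DESeq2, the likelihood ratio test, no filter, Xist as a covariate, either disputed mouse put back, and 3 settings chosen after seeing the data. Of those 3, leaving out P7 replicate 6 and P35 replicate 3 kept 2726 of the 2891 genes that rose 2-fold and 2967 of the 3080 that fell, and leaving out the 4 libraries rich in Ttr kept 2771 and 2887. The median log2 fold change moved from −0.0023 to −0.025 under upper-quartile scaling. Without a filter 4753 genes fell 2-fold in mutants, against 3021, with more genes tested.

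The counts that moved most were those of age by genotype, from 0. DESeq2 called 80 genes (2 more positive and 25 more negative in mutants by 2-fold) and the likelihood ratio test 11 (1 and 8). With 1 library left out the count ran from 0 to 221, the 2-fold counts from 0 to 2 and from 0 to 137, and the highest values came without P7 WT replicate 6, where the cause was not tested. Without P35 mutant replicate 5 it was 1. All 15 pairs kept their call under each alternative.

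Replicate numbers mark different mice at the 2 ages. The deviations of same-numbered libraries correlated at 0.094, 0.210, 0.208, −0.067 and 0.199 for numbers 1, 2, 3, 5 and 6, and not every library correlated best with its own number. With the replicate number as a block, 13983 genes were called in WT cerebellum (2834 and 3117 by 2-fold) and 14093 in mutants. Among single genes, those that turned were not called. Mef2c went to 0.010 with the block, 0.026 without the 2 libraries apart, 0.015 without the 4 rich in Ttr and 0.0088 without mitochondrial genes, and ran from −0.032 to 0.038 with 1 library left out. Sox9 went to −0.021 (upper-quartile), −0.073 (block), −0.045 (the mouse listed as WT only in the study's table added) and −0.24 (2 libraries apart), with −0.24 to 0.13 leaving out 1. Grin2d went to −0.067 without those 2, with −0.21 to 0.28, and Glra1 ran from −0.32 to 1.78. Of called genes, Reln lost its call under 6 of 23 alternatives, Barhl2 under 4 and Pax2 under 1, and Kcnk9 and Cadps2 gained one under 8 and 3.

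Depth limits low genes. Values under 0.1 CPM rest on about 3 counts a library, and intervals cover counting and the spread between these mice only.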
